A study of Saccharomyces cerevisiae with 8 samples.

Results

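SRT1 (YMR101C), RER2 (YBR002C) and NUS1 (YDL193W) are the yeast genes for the cis-prenyltransferases, the enzymes that build long polyprenol chains, and they were read on 8 arrays. The 3 genes were chosen by their annotation, with earlier results of these data known, out of 5656 genes with a probe set of their own. Among several probe sets of a gene the one with the highest mean signal over all arrays was to be selected, but each of the 3 had 1 gene-specific probe set, so that measured signals decided nothing. All 3 lay above the floor on low signal and were among the 5475 genes tested. By their locus tags, SRT1 lies on the right arm of chromosome XIII, RER2 on the right arm of chromosome II and NUS1 on the left arm of chromosome IV.

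A cis-prenyltransferase adds isoprene units one after another to farnesyl diphosphate, a product of the mevalonate pathway. The polyprenol is then reduced to dolichol and phosphorylated, and dolichyl phosphate carries the sugars for N-glycosylation, O-mannosylation and GPI anchors in the endoplasmic reticulum. Rer2 and Srt1 are alternative catalytic subunits, and Nus1 is the partner subunit that lacks catalysis of its own and is needed for activity. Rer2 is the main enzyme of growing cells, while Srt1 sits on lipid droplets, makes longer chains and is known for its part in forming the chitosan layer of the spore wall.

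The cells were Saccharomyces cerevisiae diploids of the SK1 background, which sporulates fast. The mutant strains were mre11delta and rad50delta, which lack subunits of a complex needed to make and process meiotic DNA breaks, and spo11Y135F, in which the catalytic tyrosine of the break-forming enzyme is replaced. They were set beside wild type. Each of the 4 strains gave 1 array at 4 h after transfer to sporulation medium, labelled prophase, and 1 at 0 h, after growth in acetate presporulation medium and labelled premeiosis. No strain was repeated at a time, so only the comparison of 4 h with 0 h is replicated, the 4 strains serving as replicates. Its limma p-values rest on the spread over strains, moderated by the spread of all tested genes, and not on a gene's own spread alone.

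Values are MAS5 signals on a linear scale, and the number of arrays limits their precision. Array medians over all genes lay between 178.7 and 375.6, differing up to 2.10-fold, and the sources used here do not state how the arrays were scaled. The labels give Trizol extraction for both arrays labelled mre11delta and for wild type at 0 h, and glass beads with RNeasy columns for the other 5 arrays. Wild type is therefore the only strain whose method differs between the times. RAD50 read 3.4 at 4 h and 0.6 at 0 h in rad50delta, below all other arrays, whereas MRE11 read 108 and 84.0 in the pair labelled mre11delta, between the lowest and highest of the other arrays, so that directions for that strain rest on its label. Of 14 meiotic stage markers 12 were called higher at 4 h, beside 10.6% of all tested genes. The other 2, CLB1 and CDC5, which act at the meiotic divisions, did not pass the test. The count was 9 with median centring, with quantile normalization, with extraction method as a covariate or without wild type. It was 14 without the arrays labelled mre11delta. CLB1 read 1606.6 in rad50delta and 2864.7 in spo11Y135F at 4 h, against 40 in wild type and 55.7 in the array labelled mre11delta. Among the called markers, SMK1 and SPS4 changed by -0.88 and -0.50 in the strain labelled mre11delta. IME1 at 0 h read 4896 in rad50delta and 5575.6 in spo11Y135F, against 513.9 in the array labelled mre11delta and 698.9 in wild type. The arrays of the strains taken as replicates thus differed in these markers at both times. At 0 h the split in IME1 is also that between RNeasy and Trizol arrays, so strain and method cannot be told apart there.

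At 4 h SRT1 and NUS1 were higher than at 0 h in all 4 strains, as were 21.9% of all tested genes, and RER2 showed no common direction. On the log2 scale of signal plus a pseudocount of 7, SRT1 changed by 5.54 ± 0.47, NUS1 by 2.49 ± 0.73 and RER2 by -0.06 ± 0.97 (SD, n = 4 strains). These are a 46.5-fold rise, a 5.61-fold rise and a ratio of 0.959. By limma with strain as block and Benjamini-Hochberg adjustment over all tested genes, 2 of the 3 genes were called higher, a call made for 10.6% of all tested genes. Relative to the median change of all tested genes, which was 0.19, the changes were 5.35, 2.30 and -0.25. In bulk RNA, more cells that express a gene and more RNA per cell cannot be told apart.

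SRT1 had a signal of 3188.5 in the 4 h array labelled mre11delta, 3374.3 in rad50delta, 2057 in spo11Y135F and 2964.4 in wild type. At 0 h it read 37.1, 66.0, 54.0 and 65.4 in the same order of strains. Every 4 h array lay far above every 0 h array, a separation in this direction that 14.4% of all tested genes showed. The rise was 6.18 in the strain labelled mre11delta, 5.53 in rad50delta, 5.08 in spo11Y135F and 5.36 in wild type on the log2 scale. Its limma standard error was 0.56, its 95% interval ran from 4.37 to 6.70 and its adjusted p = 5.38e-07. Only 24 of the 5475 tested genes had a larger mean rise. The call was kept under all 15 alternative settings tried, with a change between 5.05 and 5.69. These settings are not independent. Changes of floor, block, trend and probe set choice left the SRT1 change at 5.54. Its change was 5.60 both without wild type and with extraction method as a covariate.

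The order of the strains for SRT1 at 4 h was rad50delta, then the array labelled mre11delta, then wild type, then spo11Y135F. The highest was 1.64 times the lowest. Divided by each array's median the order was wild type at 16.3, rad50delta at 10.1, the array labelled mre11delta at 8.49 and spo11Y135F at 7.84, with a ratio of 2.08, so that wild type moved to the top. At 0 h the order of the signals was rad50delta, wild type, spo11Y135F and the array labelled mre11delta, with a ratio of 1.78 from highest to lowest. With 1 array each, neighbours in these orders have no spread to be set against. No strain lay 2-fold or more outside the range of the other 3 at either time or in its change over time. Such a gap in some strain was found for 36% of all tested genes at 4 h, 7.98% at 0 h and 52% in the change.

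NUS1 had a signal of 953.9 at 4 h in the array labelled mre11delta, 1184.7 in rad50delta, 607.6 in spo11Y135F and 795.4 in wild type. The 0 h signals were 139.5, 143.7, 224.9 and 104.7 in the same order. The times did not overlap, as in 14.4% of all tested genes in this direction. Within the times, spo11Y135F was the lowest strain at 4 h and the highest at 0 h. The log2 rise was 2.71 in the strain labelled mre11delta, 2.98 in rad50delta, 1.41 in spo11Y135F and 2.84 in wild type. That of spo11Y135F lay 2.48-fold below the lowest of the other 3, a gap that 21.7% of all tested genes showed for this strain in either direction. It has no replicate and was not tested, and it was under 2-fold with median centring and with quantile normalization.

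For NUS1 the limma standard error was 0.57, the 95% interval ran from 1.31 to 3.66 and the adjusted p = 0.00415. The call was kept in 13 of 15 alternatives, over which the limma adjusted p ran from 0.00054 to 0.0540. It was lost without wild type (limma adjusted p = 0.0540, change 2.37) and with extraction method as a covariate (limma adjusted p = 0.0533), a fit that likewise draws the change from the mutants alone. Within the extraction methods, the change was 2.71 in the Trizol pair labelled mre11delta and averaged 2.19 in the RNeasy pairs of rad50delta and spo11Y135F.

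RER2 had a signal of 312.8 at 4 h in the array labelled mre11delta, 204.7 in rad50delta, 155.8 in spo11Y135F and 85.6 in wild type. At 0 h the values were 316.4, 104.3, 130.8 and 236 in that order. The ranges of the 2 times overlapped almost completely, and wild type held the lowest 4 h value beside the second highest 0 h value. The log2 change was -0.02 in the strain labelled mre11delta, 0.93 in rad50delta, 0.24 in spo11Y135F and -1.39 in wild type. That of wild type lay 2.60-fold below the lowest of the mutants, a gap that 19.6% of all tested genes showed for wild type in either direction. After quantile normalization or median centring it was under 2-fold. The mean change had a limma standard error of 0.55 and a 95% interval from -1.20 to 1.08 (limma adjusted p = 0.955). Rises and falls of up to about 2-fold therefore lie within the error.

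**Figure D1:**
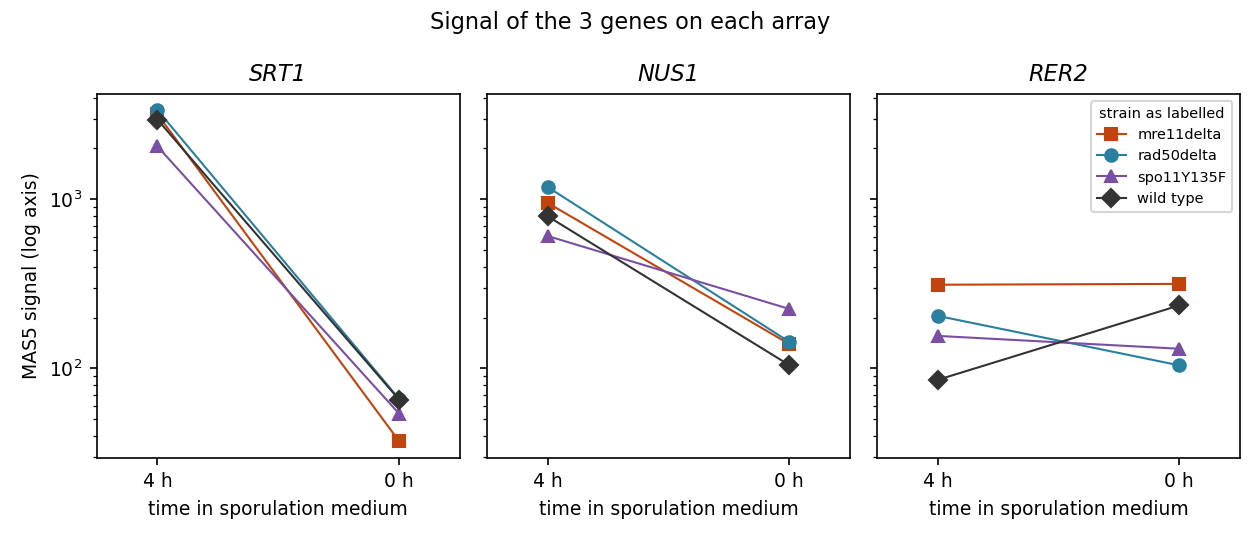
MAS5 signal on a log axis for SRT1, NUS1 and RER2 at 4 h and 0 h, with 1 point per array and a line joining the 2 arrays of a strain. SRT1 lies between 2057 and 3374.3 at 4 h and between 37.1 and 66.0 at 0 h, NUS1 is separated by time with a smaller step, and the RER2 lines cross.

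RER2 signals separated by extraction method and not by time. Its signal was 236 to 316.4 in the 3 Trizol arrays and 85.6 to 204.7 in the 5 RNeasy arrays, without overlap. All 3 Trizol signals lay above all 5 RNeasy signals in 9.88% of all tested genes. Divided by each array's median signal, RER2 was 0.833 to 1.59 in Trizol arrays and 0.471 to 0.612 in RNeasy arrays, so that the split remained after scaling. The comparison was chosen after the values were seen. Between strains, the part of strain and that of method cannot be told apart. In wild type, the only strain extracted in both ways, method and time changed together and cannot be told apart either. Within methods, the log2 change over time was -0.02 in the Trizol pair labelled mre11delta and averaged 0.58 in the RNeasy pairs, while in wild type, whose arrays cross the methods, it was -1.39. Over all 8 arrays SRT1 and NUS1 did not separate by method, with SRT1 at 37.1 to 3188.5 in Trizol arrays and 54.0 to 3374.3 in RNeasy arrays. Each method holds arrays of both times, so for genes with such a step over time this comparison cannot show a split. At 0 h NUS1 read 104.7 and 139.5 in Trizol arrays and 143.7 and 224.9 in RNeasy arrays. At 4 h its Trizol signal of 953.9 lay within the RNeasy signals of 607.6 to 1184.7.

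**Figure D2:**
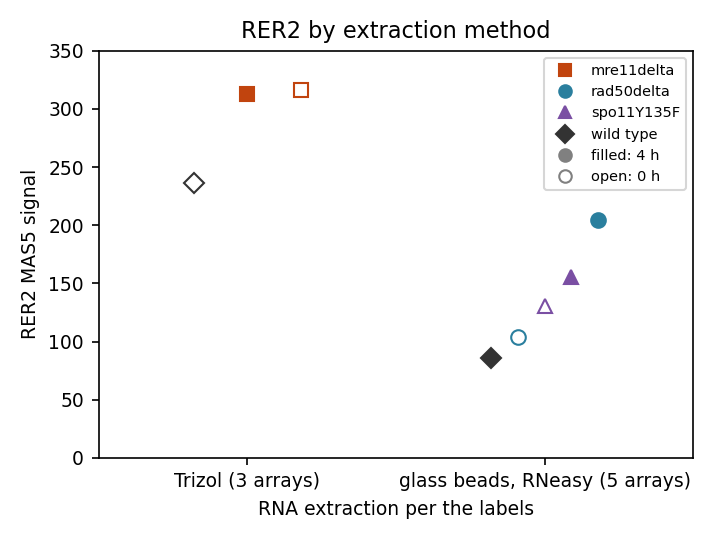
RER2 signal on a linear axis from 0 by RNA extraction method, with 1 point per array, filled at 4 h and open at 0 h. The 3 Trizol arrays lie between 236 and 316.4, and the 5 RNeasy arrays between 85.6 and 204.7.

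Differences between the genes were taken within each strain, where the scaling of the arrays cancels apart from the pseudocount. The rise of SRT1 exceeded that of NUS1 by 3.47 in the strain labelled mre11delta, 2.55 in rad50delta, 3.67 in spo11Y135F and 2.51 in wild type on the log2 scale. The mean difference was 3.05 ± 0.61 (SD, n = 4), or 8.29-fold. Against RER2, SRT1 rose more by 5.60 ± 1.04 and NUS1 by 2.55 ± 1.30, with the same sign in 4 of 4 strains for each. For these 3 comparisons the two-sided exact sign-flip permutation test gave p = 0.125 each, 0.125 after Benjamini-Hochberg adjustment, which is the smallest that 4 strains allow. The wide spread of the pair with NUS1 on top, from 1.17 in spo11Y135F to 4.24 in wild type, comes from the strains in which NUS1 rose least and RER2 fell most.

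**Figure D3:**
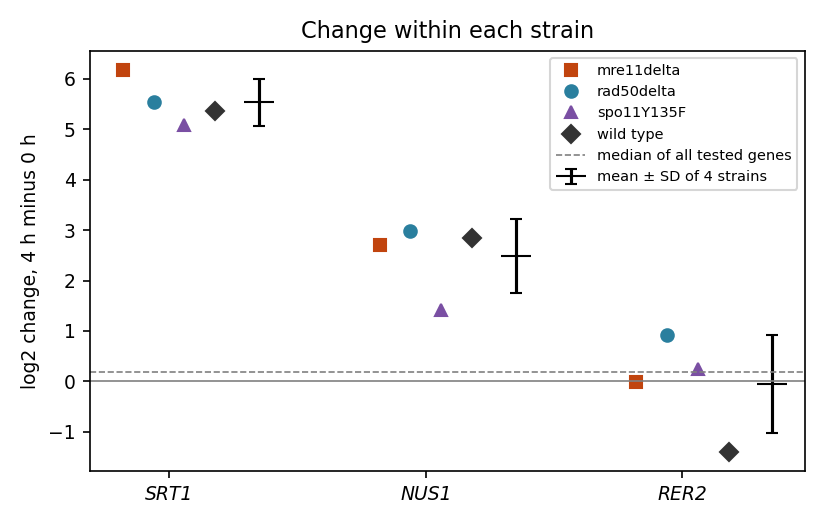
Log2 change (4 h minus 0 h) of the 3 genes by strain, with 1 point per strain, the mean with its SD over 4 strains in black, and the median change of all tested genes as a dashed line. SRT1 is at 5.08 to 6.18, NUS1 at 1.41 to 2.98, and RER2 lies on both sides of 0.

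The genes around the cis-prenyltransferases were described by 8 lists, from mevalonate to the 3 glycosylation routes that use dolichol. Of their 76 tested genes 6 rose and 4 fell at 4 h, beside 10.6% higher and 4.02% lower among all tested genes. The other 66 did not pass the test. The lists were counted, not tested as sets.

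Upstream, in the mevalonate pathway, 1 of 9 genes rose and 1 fell, with a median log2 change of -0.62 against 0.19 for all tested genes. By limma 3 fell with median centring and in the RNeasy pairs only, 2 with quantile normalization, without the arrays labelled mre11delta or with the higher floor, and 0 without wild type or with extraction method as a covariate. HMG2, an isozyme of HMG-CoA reductase, rose by 2.99 ± 0.50 (SE, limma adjusted p = 0.000233) and kept its call in all 15 alternatives. Its signal was 3053.4 to 6588.3 at 4 h and 407.6 to 827.8 at 0 h. These ranges did not overlap, as in 14.4% of all tested genes in this direction. The sister isozyme HMG1 changed by -1.70 ± 0.60 and did not pass (limma adjusted p = 0.0629). It read 3597.2 in the 4 h array labelled mre11delta and 194.5 to 814.2 in the other 4 h arrays, against 1651.1 to 3005.7 at 0 h.

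ERG20, the synthase of the farnesyl diphosphate from which cis-prenyltransferases start, fell at 4 h. Its signal was 1616.4 in the 4 h array labelled mre11delta, 375.2 in rad50delta, 113.8 in spo11Y135F and 333.7 in wild type, against 2225.4 to 3297.7 at 0 h. All 4 h values lay below all 0 h values, and the array labelled mre11delta was the least reduced. How many of all tested genes fell without overlap was not counted. The log2 change was -2.83 ± 0.59 (SE, limma adjusted p = 0.00217), a 7.13-fold decrease. The call was lost without wild type and with extraction method as a covariate, and the limma adjusted p reached 0.0771 over the 15 alternatives. SRT1 and ERG20 thus moved in opposite directions in each of the 4 strains.

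Of 4 genes for other prenyl chains 1 rose and 1 fell. BTS1, the geranylgeranyl diphosphate synthase, rose by 1.79 ± 0.52 (limma adjusted p = 0.0228), a call kept in 9 of 15 alternatives. COQ1, which makes the side chain of coenzyme Q, fell, with a log2 change of -2.45 ± 0.60 (limma adjusted p = 0.00683). That call was kept in 12 of 15 alternatives and lost, among others, without wild type. In the squalene and ergosterol branch 2 of 14 genes fell and 0 rose, with a median of -0.66. By limma 4 fell with median centring, and 0 without wild type or with extraction method as a covariate. ERG3, the sterol C-5 desaturase, changed by -2.45 ± 0.54 and ERG2, the C-8 isomerase, by -1.30 ± 0.40, both calls lost without wild type.

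Downstream, 2 of 5 genes that finish, recycle or load dolichol rose and 0 fell, while with median centring 1 rose and 1 fell. SEC59, the dolichol kinase, read 95.4 to 399.1 at 4 h and 46.5 to 99.6 at 0 h, and rose by 1.64 ± 0.53 (limma adjusted p = 0.0391, kept in 10 of 15 alternatives). ALG5, which makes dolichyl phosphate glucose, rose by 1.97 ± 0.64 (limma adjusted p = 0.0432, kept in 8 of 15). Both calls were lost without wild type and without rad50delta, and that of ALG5 also without spo11Y135F and that of SEC59 without the arrays labelled mre11delta. ALG5 read 944.2 in rad50delta and 1739 in spo11Y135F at 4 h, 275.8 in the array labelled mre11delta and 355.3 in wild type, so its rise was uneven over the strains.

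DFG10, the polyprenol reductase that turns polyprenol into dolichol, had a low signal of 17.8 to 51.8 at 4 h and 45.7 to 94.0 at 0 h. Its change of -0.60 ± 0.52 did not pass (limma adjusted p = 0.492). CAX4, the dolichyl diphosphate phosphatase, changed by 0.31 ± 0.53 (limma adjusted p = 0.750), and its sign turned in 4 of 14 alternatives. DPM1, which makes dolichyl phosphate mannose, changed by -1.38 ± 0.52 and did not pass (limma adjusted p = 0.0812).

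In the assembly of the lipid-linked oligosaccharide 1 of 11 tested genes rose and 0 fell, with a median of 0.59, and 2 rose in the RNeasy pairs only. That gene was ALG14, the membrane anchor of the enzyme that adds the next sugar after the first, at 604.3 to 1056.5 at 4 h and 167.4 to 210.6 at 0 h. It rose by 2.20 ± 0.56 (limma adjusted p = 0.00970), a call lost only without rad50delta (adjusted p = 0.0675, the highest of its 15 alternatives). Its catalytic partner ALG13 changed by 0.76 ± 0.57 (limma adjusted p = 0.420). Among the 9 subunits of the oligosaccharyltransferase, which moves the sugar chain to proteins, limma called 0, with 0 at an unadjusted p below 0.05 as well, and 1 was called lower with median centring. Of the 6 protein O-mannosyltransferases limma called 0, with 1 at an unadjusted p below 0.05, and 1 was called higher with median centring, without the strain block and in the RNeasy pairs only. Of 18 tested genes of GPI anchor assembly 1 rose, GPI19 of the first step, by 2.13 ± 0.50, with signals of 39.7 to 162.6 at 4 h and 5.0 to 44.6 at 0 h. That call was lost only without rad50delta. In the RNeasy pairs only, 5 of the 18 genes rose, beside 859 of all 5475 tested genes, and 2 rose without spo11Y135F. With the higher floor GPI19 was not tested and 0 rose.

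**Figure D4:**
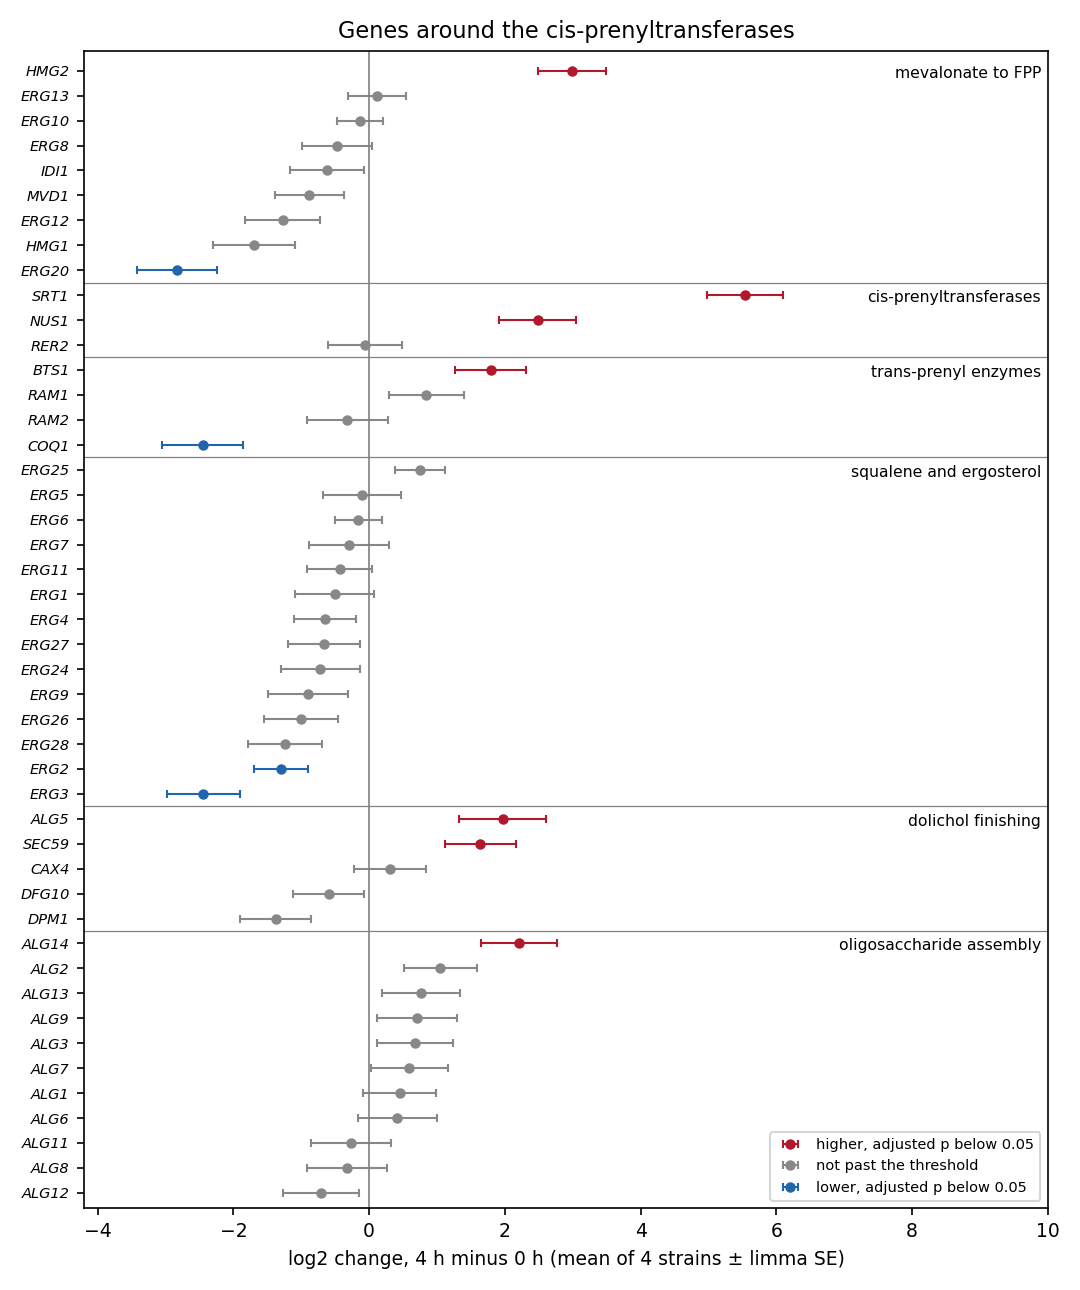
Log2 change from 0 h to 4 h (mean of 4 strains ± limma SE) for tested genes of 6 of the lists, coloured by the limma call at an adjusted p of 0.05. SRT1 at 5.54 has the largest rise shown and ERG20 at -2.83 the largest fall.

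On the spore wall side, 4 of 11 genes of chitosan and dityrosine rose and 0 fell, and 4 of 5 genes of the sporulation lipid droplet list rose. The share called higher among all tested genes was 10.6%. In the RNeasy pairs only, 7 of the 11 were higher, beside 859 of all 5475 tested genes. SHC1, the sporulation activator of chitin synthase 3, read 1179.4 at 4 h in the array labelled mre11delta, 782.6 in rad50delta, 472.5 in spo11Y135F and 738.2 in wild type, against 13.8 to 78.6 at 0 h. Its rise was 4.18 ± 0.58 (limma adjusted p = 2.69e-05). The chitin deacetylase CDA1 and the spore lipid droplet proteins LDS1 and LDS2 had larger rises, of 6.70, 6.09 and 6.53 on the log2 scale, but differed far more between strains at 4 h. CDA2, the other chitin deacetylase, rose by 5.25, or by 2.18 with the mean of its 3 probe sets, and DTR1, the dityrosine transporter, by 6.22. MUM3 rose by 3.44 and RRT8 by 2.04 in the lipid droplet list. Each of these calls was kept in 10 of 15 alternatives and lost, among others, without wild type. In the strain labelled mre11delta MUM3 did not rise, with a change of -0.28.

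LDS2 read 173.5 at 4 h in the array labelled mre11delta, 6558 in rad50delta, 7003.8 in spo11Y135F and 1793.3 in wild type, a 40.4-fold range. LDS1 spanned 44.5-fold, CDA1 39.5-fold and the transcription factor gene NDT80 10.2-fold in the same arrays. SRT1 spanned 1.64-fold and NUS1 1.95-fold. Among other genes of the same lists, RRT8 at 1.74-fold and DIT1 at 1.89-fold lay between SRT1 and NUS1. DIT1 did not pass the test over time. SHC1 was less even, at 2.50-fold. The array labelled mre11delta was the lowest for LDS1, LDS2, CDA1 and NDT80, both as deposited and after division by the array median. For SRT1 and NUS1 it was the second highest as deposited and the third after that division. The median range of all tested genes at 4 h was 3.03-fold, and that of the genes called higher 3.82-fold. Among the genes called higher, 7.39% had a smaller range than SRT1 and 17.0% a smaller one than NUS1.

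Divided by the array medians, SRT1 spanned 2.08-fold and NUS1 1.89-fold, LDS2 57.8-fold and the median tested gene 2.36-fold. On that scale 23.4% of the genes called higher had a smaller range than SRT1 and 18.7% a smaller one than NUS1, and of all tested genes 39.9% had a smaller one than SRT1. The low place of SRT1 among all genes thus depends on the scaling. These ranges rest on 1 array per strain and were compared after the values were seen, without a test.

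The 5 genes whose pattern over the 8 arrays was most like that of SRT1 were ECM11, MEI5, NDJ1, YGL081W and MEK1, with Pearson's r of log2 values from 0.995 to 0.999. The arrays fall into 2 sets by time and share strains and extraction, so r reflects mainly the step between the times and is given as a description. ECM11 is a component of the synaptonemal complex, MEI5 an accessory of strand exchange, NDJ1 a telomere protein of meiotic prophase and MEK1 a kinase of meiotic recombination. YGL081W is named by its locus tag only. Their ranges at 4 h were 1.31-fold to 2.66-fold as deposited and 2.15-fold to 3.46-fold over the array medians, and all 5 rose, by 5.14 to 7.91 on the log2 scale. NDJ1, for example, read 484 to 801.4 at 4 h and 2.8 to 9.3 at 0 h.

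**Figure D5:**
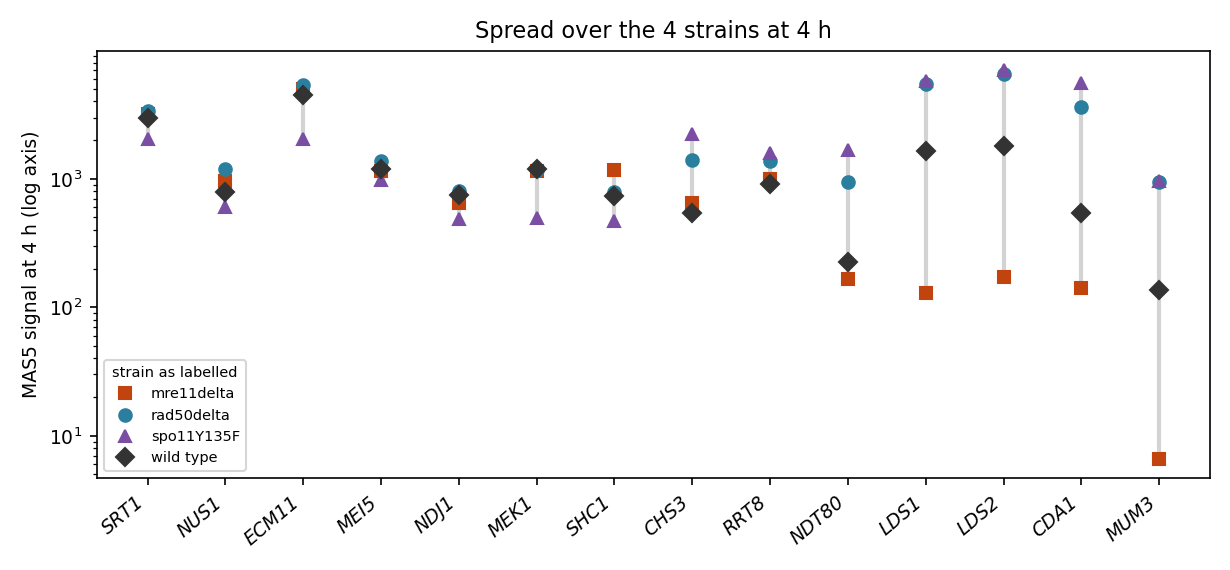
MAS5 signal at 4 h on a log axis for SRT1, NUS1, genes with a pattern like that of SRT1, and genes of the spore wall and lipid droplets, with 1 point per strain and a grey line from lowest to highest. SRT1 and NUS1 span 1.64-fold and 1.95-fold, and LDS1, LDS2 and CDA1 span 39.5-fold to 44.5-fold with the array labelled mre11delta lowest.

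For NUS1 the most similar patterns were those of YOR1, a drug-efflux transporter, SPO22, a protein of meiotic crossover formation, and MEC3, a subunit of the DNA damage checkpoint clamp, all with r of 0.992. SPO22 rose by 3.64 and MEC3 by 2.46, and each was lowest in spo11Y135F at 4 h and highest there at 0 h, as NUS1 was. Both were picked by their likeness to NUS1 over the same arrays, so a shared order of strains follows in part from that choice. YOR1 has 7 probe sets, and its rise of 4.46 was not called when they were averaged (limma adjusted p = 0.154, the highest of its 15 alternatives). For RER2 they were NRP1, a putative RNA-binding protein, OPT2, an oligopeptide transporter, and FUR4, the uracil permease, with r of 0.971, 0.970 and 0.963. FUR4, for example, read 57.9 in wild type at 4 h, against 173.3 in wild type at 0 h. Like RER2 it was higher in the Trizol array of that strain, a likeness that likewise follows in part from the choice. None of these 3 passed the test over time, and their changes were within 0.20 of 0 on the log2 scale.

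Markers of other cell states were read beside these changes. Of 13 tested markers of cells that are not a/alpha diploids 5 rose (MFA1, STE18, AXL1, STE3 and FAR1), beside 10.6% of all tested genes. The count was 3 with median centring, with quantile normalization, without the strain block or without spo11Y135F. The probe set of MFA1 is of a type that similar sequences can share, and the call of STE18 was kept in 9 of 15 alternatives. The list's summed signal was 1784.2 to 7608.1 at 4 h against 798.4 to 1434.8 at 0 h. STE2, the alpha-factor receptor, read 24.5 to 44.1 at 4 h and 14.9 to 17.4 at 0 h, and no tested marker was at 0. Of 8 tested markers of mitotic G2/M 1 fell, CHS2, the septum chitin synthase, by limma with an adjusted p of 0.0120. That call was lost without wild type, with extraction method as a covariate and in the RNeasy pairs only, where 2 markers rose and 0 fell (limma adjusted p up to 0.116 for CHS2 over 15 alternatives). Their summed signal was 225.1 to 5418.6 at 4 h and 578.2 to 923.7 at 0 h, of which CDC20 alone gave up to 4562.8. NEJ1 of the first list and BUD4 of the second lay below the floor. The part of such cells in the changes of SRT1 and NUS1 was not tested.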

How the data were processed

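The authors computed MAS5 signal intensities, per the submitters' processing notes, and deposited them on a linear scale. Neither version nor scaling is stated there: not given in the sources used here. Of 9335 probe sets, 6504 carry 1 gene, 328 several and 2503 none, and all 6504 matched the RefSeq gene table by gene identifier. Per gene 1 probe set was kept, the plain type first and then the highest mean. Values were analysed as log2 of signal plus 7, about their 10th percentile (6.8), without further scaling. A mean signal of 21 or more was required, and the genes were tested with limma 3.58.1 in R 4.3.3 (strain as block, trend in eBayes, two-sided, Benjamini-Hochberg at 0.05, 3 residual degrees of freedom). The strain pairs the times, since the same strain was measured at both. Strains were compared without a test.

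The members and lists were chosen with earlier results of these data known. Named are the 3 genes, up to 4 called genes per list by size of change, the enzymes next to them (ERG20, DFG10, SEC59 and CAX4), the genes most like each of the 3, and MRE11 and RAD50 as label checks. Other list genes were named after their values were seen. The alternatives changed the pseudocount, floor, scaling, block, trend, probe sets, extraction covariate or strains, and the fit was tested on simulated data. Protein and promoter sequences were not used here.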

Additional observations from a re-analysis of the deposited data

Results flagged for a closer look

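RER2 had opposite directions between strains, with a log2 change of 0.93 in rad50delta and -1.39 in wild type. The 3 genes most like it were picked for that likeness over these same arrays, so their values are no independent support. Their changes were 1.28 in rad50delta and -1.48 in wild type for NRP1, 0.68 and -0.95 for OPT2, and 0.67 and -1.47 for FUR4. CAX4 had a change of -0.88 in spo11Y135F and 1.87 in the strain labelled mre11delta. These differences were not tested, since each strain has 1 array per time.

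A strain far from the other 3 was looked for in 153 groups of 4 values and found in 7. The share that chance gives was not worked out, and the changes are computed from the values at 4 h and 0 h. The cases are therefore listed as descriptions only. DFG10 stood high in wild type at 0 h, at 6.66 (log2). CAX4 stood high in the 4 h array labelled mre11delta, at 7.22. MEK1 stood low in spo11Y135F at 4 h, at 8.97, and in its change there, at 4.17. SPO13, a regulator of meiotic chromosome segregation, rose least in spo11Y135F, by 4.24. LDS2 rose least in the strain labelled mre11delta, by 4.22. CHS2 changed by -4.46 in wild type, the largest fall of the 4 strains.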

How the results depend on the processing

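SRT1 kept its direction and call in all 15 alternatives, and NUS1 its direction in 15 and its call in 13. NUS1 was 2.37 with extraction method as a covariate and 2.32 to 2.85 with a strain left out; its call was lost without wild type as well. RER2 was never called, and its change was 0.38 with extraction method as a covariate, 0.58 in the RNeasy pairs only and -0.39 to 0.38 with a strain left out. Of all tested genes 582 were higher and 220 lower. The higher were 346 with extraction method as a covariate, 859 in the RNeasy pairs only and 328 to 637 with a strain left out. The lower were 559 with median centring, 378 with quantile normalization, 36 with extraction method as a covariate, 355 in the RNeasy pairs only and 36 to 264 with a strain left out. The median change of all genes was 0.19 as deposited, -0.21 with median centring and -0.07 with quantile normalization. As deposited 2 strain values of the 3 genes stood 2-fold apart, NUS1 in spo11Y135F and RER2 in wild type. Neither did with median centring, where 1 other did, NUS1 in wild type, and 0 did with quantile normalization. Of the 11 genes named as most similar, 7 remained with quantile normalization and 2 by Spearman's rho. The cause was not tested for these shifts. Without the strain block, called the replicate block here, NUS1 and SRT1 kept their calls (NUS1 limma adjusted p = 0.00212). Counts over the lists moved by more than 1.5 times in 58 cases and stayed within that in 362. The number of arrays limits the precision.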

Other observations

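Of 13 tested genes of the lipid droplet core 3 rose and 0 fell at 4 h, beside 10.6% and 4.02% of all tested genes. With median centring 2 rose and 1 fell, and without spo11Y135F 5 rose. YEH1, a steryl ester hydrolase, read 754.3 at 4 h in the array labelled mre11delta, 4970.4 in rad50delta, 5537.2 in spo11Y135F and 517.2 in wild type, against 99.8 to 190.1 at 0 h, and rose by 3.61 ± 0.65 (SE, limma adjusted p = 0.000538). The triacylglycerol lipases TGL4 and TGL3 rose by 2.61 ± 0.60 and 2.43 ± 0.62, while the steryl ester hydrolase TGL1, at 1.53, and the lipase TGL5, at -0.64, did not pass (limma adjusted p = 0.0714 and 0.499). TGL3 read 1912.7 in spo11Y135F and 97.2 in wild type at 4 h, and its call was lost with median centring, with quantile normalization and without rad50delta.

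By the order of genes in the RefSeq table, SRT1 and MUB1 (YMR100W), whose product takes part in protein degradation, are neighbours that run towards each other. MUB1 read 827.4 to 1870.1 at 4 h and 130.7 to 264.7 at 0 h, and rose by 2.73 ± 0.58 (limma adjusted p = 0.00234), a call kept in all 15 alternatives. LAF1, on the other side of SRT1, changed by -0.60 ± 0.54 and did not pass. RER2 and COQ1 run away from each other, and COQ1 fell while RER2 showed no common direction. NTH2, a putative trehalase gene on the other side of RER2, rose by 2.49 ± 0.63, a call lost, among others, without wild type. The neighbours of NUS1, SNF3 and ARF1, changed by 1.11 ± 0.53 and -0.95 ± 0.34 and did not pass. No hypothesis was tested on these neighbours.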
